A study of Mus musculus with 22 samples.

Results

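The 30 genes that encode subunits of BAF chromatin remodeling complexes were followed in RNA-seq of the developing mouse trachea. They were taken by gene symbol from a list of the complex's subunits, all 30 were found, and they make up 30 of the 26202 gene symbols of the deposited count table. Whole tracheas at E11.5 came from Wnt5a f/f controls (5 libraries) and from mutants labelled Dermo1Cre; Wnt5af/f (4 libraries), in which a Cre recombinase expressed in the mesenchyme deletes Wnt5a, a ligand of non-canonical Wnt signaling. The controls carry the floxed allele without the Cre. At E13.5 all sorted samples carried the gamma SMA eGFP reporter. Epithelial cells were taken by EpCAM stain, muscle cells by GFP, and cells negative for both were collected as chondroblasts. Control populations (2 libraries each) are labelled Bmp4 f/f; gamma SMA eGFP for the first and second samples and Notum 300/300;gamma SMA eGFP for the third, and the columns do not say which is which. Mutant chondroblasts (3 libraries) are labelled Notum 150/150;gamma SMA eGFP, a loss of function allele of Notum, a secreted enzyme that inactivates Wnt ligands. Each sample pooled 5 tracheas, from the same litter at E13.5. Mutants 98 and 98-2 carry the same number, which the labels do not explain, and p-values measure the spread between these samples, which may in part be technical.

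BAF complexes, the mammalian SWI/SNF family, use ATP to slide or evict nucleosomes and so open enhancers and promoters. Each complex holds 1 ATPase, Smarca4 (BRG1) or Smarca2 (BRM), with Smarcc and Smarcd subunits and an actin-related protein. Smarcb1 and Smarce1 belong to canonical BAF and PBAF. Canonical BAF adds Arid1a or Arid1b and a Dpf protein, PBAF adds Arid2, Pbrm1, Brd7 and Phf10, and non-canonical BAF adds Brd9 and Bicra or Bicral. Most paralogs are alternatives to each other within a complex, and the forms used are known to change as progenitors become neurons or muscle.

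Total counts ran from 6880665 to 21678194 per library, and 3 counts, taken as the floor for counting error only, equal 0.436 CPM at the lowest total and 0.138 CPM at the highest. Levels are CPM, the count divided by the TMM-scaled library total and put on the usual scale of that unit. Values are given in a fixed order: E11.5 controls 13, 16, 17, 18 and 7, Wnt5a mutants 13, 17, 18 and 7, the earlier and then the later of the 2 dates in the column names for the sorted controls, and Notum mutants 97, 98 and 98-2, all of the later date. Sorted populations held their markers: 8 epithelial genes summed to 2985 and 3459 CPM in epithelium and to 45.4 CPM at most in the other sorted libraries, 8 smooth muscle genes to 14191 and 11060.5 CPM in muscle and to 114.4 CPM at most elsewhere among the sorted libraries, and 8 cartilage genes to 2413 to 3802 CPM in chondroblasts but also to 846 and 1802 CPM in muscle. Whole-gene counts did not separate the genotypes: Wnt5a ran from 62.1 to 159 CPM in E11.5 controls and from 46.3 to 126.2 CPM in mutants, and Notum measured 13.7 and 86.0 CPM in control against 33.4, 35.3 and 13.7 CPM in mutant chondroblasts, so these counts do not check the labels. The earlier chondroblast control carried 74923 CPM of 7 erythroid genes against 7311 to 9949 CPM in the other chondroblast libraries.

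Sequence before the transcription start is shown for the ATPase pair and Arid1a, on which several results turn, and for the only stretch of a member promoter with a TCF/LEF heptamer (CTTTG followed by 2 bases that are each A or T, searched on both strands), the letters bound by the nuclear factors of Wnt/β-catenin signaling. RefSeq promoters (GRCm38.p6, 250 bases before the start) were at hand for 24 of the 30 genes, 26 promoters in all, of which 6 start over 1 kb from the annotated gene start. In the first 3 lines, read 5′ to 3′ on the gene's strand, capitals mark CG dinucleotides, and only bases before the annotated gene are printed. In the last line they mark the heptamer, which begins 89 bases before the RefSeq start and lies in the annotated 5′ UTR.
Smarca2 chr19:26604910-26605049 (+): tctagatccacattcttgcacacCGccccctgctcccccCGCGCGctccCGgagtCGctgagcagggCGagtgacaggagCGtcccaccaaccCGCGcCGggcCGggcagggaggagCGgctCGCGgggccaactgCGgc
Smarca4 chr9:21615919-21616168 (+): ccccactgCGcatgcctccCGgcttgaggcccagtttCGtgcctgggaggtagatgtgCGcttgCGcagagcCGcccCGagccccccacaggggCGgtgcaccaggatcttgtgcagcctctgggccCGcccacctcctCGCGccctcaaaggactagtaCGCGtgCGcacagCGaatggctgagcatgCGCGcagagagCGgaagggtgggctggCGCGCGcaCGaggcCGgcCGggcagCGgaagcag
Arid1a chr4:133756770-133757019 (-): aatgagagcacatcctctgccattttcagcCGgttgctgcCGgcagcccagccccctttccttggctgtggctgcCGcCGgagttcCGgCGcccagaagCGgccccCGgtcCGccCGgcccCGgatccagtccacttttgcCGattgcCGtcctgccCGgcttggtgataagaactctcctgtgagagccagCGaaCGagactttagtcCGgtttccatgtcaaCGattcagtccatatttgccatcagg
Bcl11b chr12:108003487-108003513 (-): aggccaagcaCTTTGAAgaagtgtgag
The ATPase and Arid1a promoters are dense in CG, with 28, 25 and 18 in the 250 bases of Smarca2, Smarca4 and Arid1a, against 9 for Bcl11b. Another Arid1a promoter, not printed, with its start at chr4:133753985, held 33. Over the 26 member promoters the median was 26.5 CG dinucleotides, from 4 in Smarcd2 to 51 in Phf10, against a median of 6 over all 32851 promoters, and 21 of the 26 lay above the upper quartile of 16. The heptamer was found in 1 of 26 member promoters (3.85%) and in 14.8% of all promoters, which describes these letters in these windows and nothing more. The genes lie at chr19:26605050-26778322 (Smarca2, plus strand), chr9:21616169-21704230 (Smarca4, plus strand), chr4:133679008-133756769 (Arid1a, minus strand) and chr12:107910403-108003602 (Bcl11b, minus strand) of GRCm38.

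The subunits ranged widely in level. Per kilobase of the longest RefSeq transcript, the median over 18 libraries was highest for the core subunit Smarcb1 (138 CPM per kb), followed by Actl6a (102), Smarce1 (68.4), Ss18 (61.3) and Smarca4 (49.96). It was lowest for Bcl11b (1.06), Actl6b (0.491) and Dpf3 (0.350). Of the 30 genes, 26 reached 1 CPM in all 18 libraries. The exceptions were Bcl11b (17 libraries), Bicral (16), Dpf3 (12) and Actl6b (8).

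Of the 2 ATPases, Smarca4 was the main form in every library and Smarca2 took its largest shares in control chondroblasts and in the later muscle library. Smarca4 measured 316, 279, 352, 313 and 479 CPM in the E11.5 controls and 376, 249.6, 339 and 436 CPM in the Wnt5a mutants. At E13.5 it measured 322 and 258 CPM in epithelium, 274 and 307 CPM in muscle and 304 and 296 CPM in control chondroblasts, and 389.8, 471 and 367 CPM in Notum mutant chondroblasts. The 6 sorted control libraries lay close together, and all 3 Notum mutant libraries lay above them. Smarca2 measured 61.7, 53.2, 49.9, 71.7 and 59.2 CPM in the E11.5 controls and 81.6, 56.7, 83.4 and 59.6 CPM in the Wnt5a mutants. In the sorted cells Smarca2 measured 71.8 and 78.01 CPM in epithelium, 81.5 and 171 CPM in muscle and 149.5 and 192 CPM in control chondroblasts, and 118, 142 and 134 CPM in Notum mutant chondroblasts. Both control chondroblast libraries lay above all 9 E11.5 libraries and above both epithelial libraries, whereas the muscle libraries of the 2 dates lay far apart, the earlier near epithelium and the later among the chondroblasts. Per kilobase, Smarca2 made up 11.7 to 19.8% of ATPase transcripts in E11.5 controls, 12.8 to 20.95% in Wnt5a mutants, 19.4 and 24.6% in epithelium, 24.3 and 37.5% in muscle, 34.6 and 41.1% in control chondroblasts and 24.6 to 28.3% in Notum mutant chondroblasts.

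**Figure D1:**
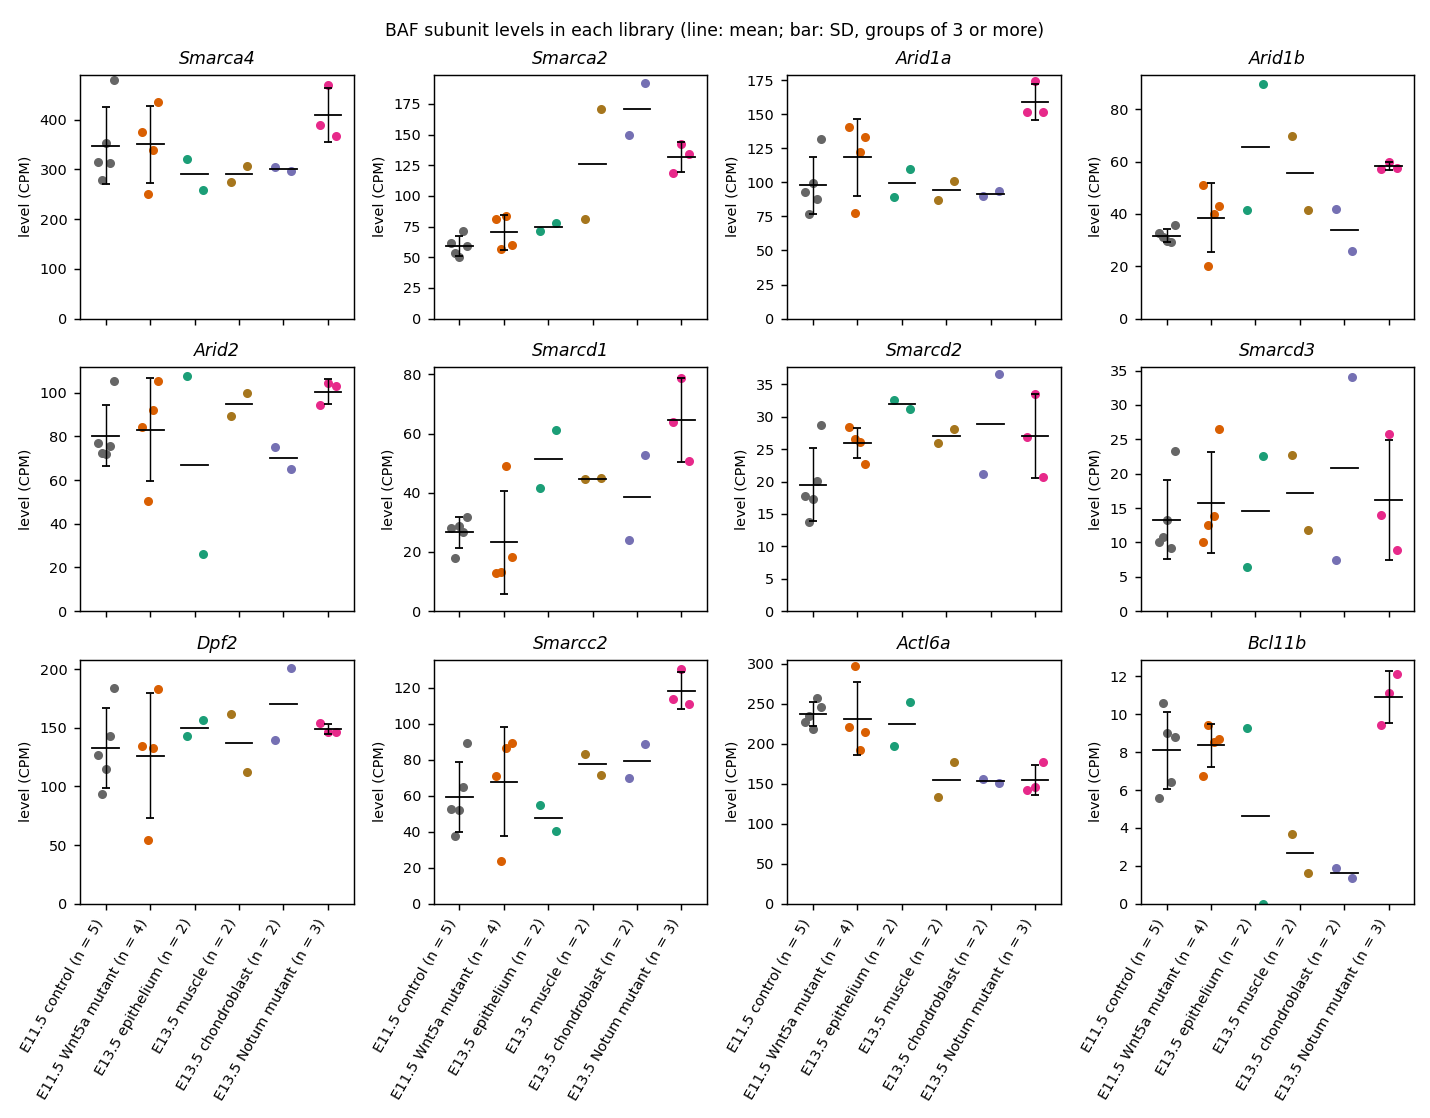
Level of 12 BAF subunits in each library (y axis, CPM scaled by TMM factors, each panel from 0) by group (x axis). Points are libraries, lines are group means and bars are SD for groups of 3 or more libraries. Smarca2 measures 149.5 and 192 CPM in control chondroblasts against 71.8 and 78.0 CPM in epithelium, and Arid1a, Smarcc2 and Bcl11b are higher in all 3 Notum mutant libraries than in both control chondroblast libraries.

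The ARID subunits carry a DNA-binding domain, and which of them a complex holds sets canonical BAF apart from PBAF. Per kilobase, Arid1a took more of their transcripts than Arid1b in every library and more than Arid2 in all but the earlier epithelial library. Arid1a measured 92.8, 77.2, 99.3, 87.95 and 132 CPM in the E11.5 controls and 141, 77.6, 123 and 133 CPM in the Wnt5a mutants. In sorted cells Arid1a measured 89.3 and 110.2 CPM in epithelium, 87.3 and 101 CPM in muscle and 89.9 and 93.6 CPM in control chondroblasts, and 152, 174 and 152 CPM in Notum mutant chondroblasts. Sorted controls of the 3 populations overlapped, and the Notum mutants lay above all 6. Arid1b, the alternative to Arid1a, measured 32.9, 31.1, 29.5, 29.4 and 35.6 CPM in the E11.5 controls and 50.95, 20.04, 40.01 and 43.01 CPM in the Wnt5a mutants. In sorted cells Arid1b measured 41.6 and 89.8 CPM in epithelium, 69.6 and 41.3 CPM in muscle and 41.8 and 25.8 CPM in control chondroblasts, and 57.1, 59.9 and 57.7 CPM in Notum mutant chondroblasts. Between the dates Arid1b differed in opposite directions, higher at the later date in epithelium and lower in muscle and chondroblasts. Arid2, of PBAF, measured 76.9, 72.2, 72.04, 75.6 and 105 CPM in the E11.5 controls and 84.2, 50.5, 92.04 and 106 CPM in the Wnt5a mutants. In sorted cells Arid2 measured 108 and 26.2 CPM in epithelium, 89.4 and 100.04 CPM in muscle and 75.1 and 64.98 CPM in control chondroblasts, and 94.2, 105 and 103 CPM in Notum mutant chondroblasts. The later epithelial library was the lowest of all 18 for Arid2. Per kilobase, Arid1a made up 39.1 to 55.2% of the 3 ARID transcripts over all libraries, Arid1b 9.95 to 32.4% and Arid2 12.6 to 46.4%.

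The Smarcd subunits, which link the core to transcription factors and of which Smarcd3 is the form of heart and skeletal muscle, differed widely between libraries of the same group. Smarcd1 measured 28.04, 17.9, 28.7, 26.6 and 31.6 CPM in the E11.5 controls and 12.9, 13.1, 49.2 and 18.1 CPM in the Wnt5a mutants. In sorted cells Smarcd1 measured 41.7 and 61.1 CPM in epithelium, 44.6 and 44.9 CPM in muscle and 24.1 and 52.9 CPM in control chondroblasts, and 64.1, 78.8 and 50.6 CPM in Notum mutant chondroblasts. Of the Wnt5a mutants, mutant 18 stood above the other three for Smarcd1. Smarcd2 measured 17.7, 13.7, 17.4, 20.1 and 28.8 CPM in the E11.5 controls and 28.4, 26.5, 26.1 and 22.8 CPM in the Wnt5a mutants. In sorted cells Smarcd2 measured 32.5 and 31.3 CPM in epithelium, 25.97 and 28.2 CPM in muscle and 21.1 and 36.5 CPM in control chondroblasts, and 26.8, 33.6 and 20.7 CPM in Notum mutant chondroblasts, where mutant and control chondroblasts overlapped. Smarcd3 measured 10.1, 10.7, 13.3, 9.22 and 23.3 CPM in the E11.5 controls and 10.1, 12.6, 13.8 and 26.5 CPM in the Wnt5a mutants. In sorted cells Smarcd3 measured 6.47 and 22.6 CPM in epithelium, 22.7 and 11.8 CPM in muscle and 7.38 and 34.1 CPM in control chondroblasts, and 13.9, 25.8 and 8.87 CPM in Notum mutant chondroblasts. The muscle libraries lay within the range of the other gates for Smarcd3, although 6 heart muscle markers summed to 1903 and 652 CPM and 5 skeletal muscle markers to 645 and 65.5 CPM in muscle. Per kilobase, none of the 3 dominated: Smarcd1 took 18.9 to 54.8% of Smarcd transcripts over the 18 libraries, Smarcd2 24.0 to 51.6% and Smarcd3 13.2 to 52.6%.

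Of the PHD finger subunits, Dpf2 was the main form in all 18 libraries. Dpf2, the ubiquitous subunit of canonical BAF, measured 127, 93.97, 115, 143 and 184 CPM in the E11.5 controls and 134, 54.5, 133 and 183 CPM in the Wnt5a mutants. In sorted cells Dpf2 measured 143 and 157 CPM in epithelium, 162 and 112 CPM in muscle and 140.05 and 201 CPM in control chondroblasts, and 154, 146 and 146 CPM in Notum mutant chondroblasts. Mutant 17 was the lowest library, and the control chondroblasts spanned the Notum mutants. Dpf1, a form of neurons, measured 8.40, 5.60, 6.34, 5.86 and 10.8 CPM in the E11.5 controls and 7.31, 9.07, 5.53 and 7.85 CPM in the Wnt5a mutants. In sorted cells Dpf1 measured 4.17 and 6.77 CPM in epithelium, 11.7 and 5.35 CPM in muscle and 11.7 and 5.68 CPM in control chondroblasts, and 11.97, 9.63 and 9.74 CPM in Notum mutant chondroblasts. No group stood apart for Dpf1. Dpf3, a form of heart and skeletal muscle, was low, with 21 to 53 counts a library in the E11.5 controls. It measured 1.56, 4.98, 3.65, 1.81 and 1.05 CPM in the E11.5 controls and 1.31, 1.57, 1.65 and 0.791 CPM in the Wnt5a mutants. In sorted cells Dpf3 measured 1.63 and 0 CPM in epithelium, 0 and 0 CPM in muscle and 1.06 and 0 CPM in control chondroblasts, and 0.319, 1.12 and 1.07 CPM in Notum mutant chondroblasts. Neither muscle library held a count of Dpf3, which allows up to 0.171 and 0.182 CPM. Phf10, the PHD finger subunit of PBAF, measured 21.8, 22.9, 23.2, 21.9 and 33.1 CPM in the E11.5 controls and 28.6, 26.6, 25.9 and 30.5 CPM in the Wnt5a mutants. In sorted cells Phf10 measured 27.98 and 30.9 CPM in epithelium, 48.1 and 55.4 CPM in muscle and 27.4 and 34.1 CPM in control chondroblasts, and 31.3, 37.02 and 30.01 CPM in Notum mutant chondroblasts. Both muscle libraries lay above all other libraries for Phf10, and per kilobase Phf10 made up 34.9 and 47.9% of the 4 PHD finger transcripts in muscle against 22.1 to 43.4% elsewhere, the 43.4% being mutant 17.

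Of the core scaffold pair, Smarcc1 made up 48.7 to 86.8% of transcripts per kilobase over the 18 libraries, and only in the earlier muscle library was it below Smarcc2. Smarcc1 measured 173, 172, 214, 142 and 289 CPM in the E11.5 controls and 158, 197, 201 and 234 CPM in the Wnt5a mutants. In sorted cells Smarcc1 measured 167 and 199 CPM in epithelium, 98.99 and 171 CPM in muscle and 125 and 188 CPM in control chondroblasts, and 259.8, 242 and 203 CPM in Notum mutant chondroblasts. All 3 Notum mutants lay above the 6 sorted controls for Smarcc1. Smarcc2 measured 52.4, 37.6, 52.1, 64.7 and 89.5 CPM in the E11.5 controls and 70.8, 23.9, 86.6 and 89.5 CPM in the Wnt5a mutants. In sorted cells Smarcc2 measured 54.9 and 40.3 CPM in epithelium, 83.2 and 71.7 CPM in muscle and 69.8 and 88.9 CPM in control chondroblasts, and 114, 130.3 and 111 CPM in Notum mutant chondroblasts. Smarcc2 was lowest in epithelium among the sorted cells and highest in the Notum mutants. The remaining core subunits, Smarcb1 (181 to 291 CPM over 18 libraries) and Smarce1 (162 to 238 CPM), varied least, as a ratio of the highest to the lowest library.

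The actin-related pair was almost wholly Actl6a, the form of proliferating cells. Actl6a measured 227, 234, 219, 258 and 245 CPM in the E11.5 controls and 221, 297, 192 and 214 CPM in the Wnt5a mutants. In sorted cells Actl6a measured 197 and 252 CPM in epithelium, 134 and 177 CPM in muscle and 156 and 151 CPM in control chondroblasts, and 142, 146 and 177 CPM in Notum mutant chondroblasts. Epithelium lay above chondroblasts of both genotypes, and muscle overlapped the chondroblasts. Actl6b, which replaces Actl6a in neurons, measured 1.10, 0.156, 0.689, 0.586 and 0.100 CPM in the E11.5 controls and 0.873, 2.99, 0.399 and 0 CPM in the Wnt5a mutants. In sorted cells Actl6b measured 0 and 0 CPM in epithelium, 0 and 2.46 CPM in muscle and 1.97 and 2.69 CPM in control chondroblasts, and 2.59, 1.36 and 1.61 CPM in Notum mutant chondroblasts. All 5 chondroblast libraries and the later muscle library had counts of Actl6b, and both epithelial libraries and the earlier muscle library had 0. Summed levels of 10 neuron and neural crest markers were 217 to 389 CPM in the chondroblast libraries. They were 18.7 and 157 CPM in muscle and 51.0 and 136 CPM in epithelium. Over all libraries this sum and Actl6b did not always go together. Wnt5a mutant 17 was the highest for both, with the markers at 550 CPM. E11.5 control 16 held 271 CPM of the markers but 0.156 CPM of Actl6b. The later epithelial library held 136 CPM of the markers and no count of Actl6b. The part of these markers in the Actl6b level was not tested.

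Of the subunits outside these families, Ss18, which helps to anchor canonical and non-canonical BAF, measured 267, 201, 229.8, 305 and 274 CPM in the E11.5 controls and 258, 236, 276 and 243 CPM in the Wnt5a mutants. In sorted cells Ss18 measured 183 and 196 CPM in epithelium, 241 and 212 CPM in muscle and 268 and 254 CPM in control chondroblasts, and 272, 279 and 255 CPM in Notum mutant chondroblasts. Its neuronal paralog Ss18l1 measured 15.01, 10.6, 13.3, 14.6 and 18.95 CPM in the E11.5 controls and 15.00, 8.42, 17.5 and 20.2 CPM in the Wnt5a mutants, and 12.4 and 19.4 CPM in epithelium, 17.5 and 19.5 CPM in muscle and 20.7 and 22.8 CPM in control chondroblasts, with 18.1, 27.1 and 21.4 CPM in Notum mutant chondroblasts. Ss18 exceeded Ss18l1 in every library, and epithelium was low for Ss18. Bromodomain subunit Brd9, of non-canonical BAF, measured 54.9, 52.3, 54.3, 74.7 and 63.3 CPM in the E11.5 controls and 56.6, 60.3, 68.2 and 70.05 CPM in the Wnt5a mutants. In sorted cells Brd9 measured 69.6 and 47.1 CPM in epithelium, 89.7 and 88.2 CPM in muscle and 71.4 and 79.2 CPM in control chondroblasts, and 67.01, 78.4 and 64.02 CPM in Notum mutant chondroblasts. Brd7, of PBAF, measured 52.7, 51.7, 50.1, 61.2 and 58.4 CPM in the E11.5 controls and 51.6, 55.2, 56.9 and 54.7 CPM in the Wnt5a mutants, and 48.5 and 81.9 CPM in epithelium, 75.1 and 46.6 CPM in muscle and 51.5 and 33.2 CPM in control chondroblasts, with 54.8, 54.97 and 55.3 CPM in Notum mutant chondroblasts. Per kilobase, Brd9 was at 1.51 to 1.82 times the level of Brd7 in the E11.5 controls and at 1.63 to 1.91 times in the Wnt5a mutants, and it was below Brd7 in the later epithelial library only, at 0.858 of it. Pbrm1, the bromodomain scaffold of PBAF, ran from 112 CPM in a control chondroblast library to 240.3 CPM in an epithelial library.

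Bicra and Bicral, which define non-canonical BAF, varied widely between libraries of the sorted cells. Bicra measured 5.50, 7.00, 4.62, 5.91 and 7.12 CPM in the E11.5 controls and 4.75, 2.17, 5.87 and 5.53 CPM in the Wnt5a mutants. In sorted cells Bicra measured 1.58 and 14.9 CPM in epithelium, 6.36 and 3.21 CPM in muscle and 3.84 and 1.12 CPM in control chondroblasts, and 10.7, 8.85 and 9.79 CPM in Notum mutant chondroblasts. Sorted libraries spanned a wider range than the E11.5 libraries. Bicral measured 7.59, 8.40, 9.10, 7.24 and 8.87 CPM in the E11.5 controls and 11.2, 4.18, 10.2 and 8.70 CPM in the Wnt5a mutants. In sorted cells Bicral measured 12.9 and 0.260 CPM in epithelium, 20.6 and 10.6 CPM in muscle and 10.3 and 0.597 CPM in control chondroblasts, and 12.3, 18.9 and 11.01 CPM in Notum mutant chondroblasts. The later epithelial library was the highest for Bicra and the lowest for Bicral, and the later chondroblast control was the lowest for Bicra and near the floor for Bicral. Of the Bcl7 subunits, Bcl7a measured 13.2, 12.1, 14.1, 12.9 and 22.6 CPM in the E11.5 controls and 17.02, 8.47, 14.2 and 24.6 CPM in the Wnt5a mutants, and 25.4 and 31.8 CPM in epithelium, 18.95 and 7.24 CPM in muscle and 10.5 and 13.7 CPM in control chondroblasts, with 21.2, 28.2 and 19.00 CPM in Notum mutant chondroblasts. Bcl7b (22.3 to 42.3 CPM) and Bcl7c (23.2 to 67.5 CPM) spanned a smaller ratio of highest to lowest library than Bcl7a. Bcl11a and Bcl11b are zinc finger transcription factors of neurons and lymphocytes that join BAF. Bcl11a ran from 25.9 CPM in the later epithelial library to 77.0 CPM in E11.5 control 7. Bcl11b measured 5.56, 10.6, 9.03, 6.45 and 8.82 CPM in the E11.5 controls and 6.76, 9.45, 8.55 and 8.70 CPM in the Wnt5a mutants. In sorted cells Bcl11b measured 9.29 and 0 CPM in epithelium, 3.68 and 1.64 CPM in muscle and 1.87 and 1.34 CPM in control chondroblasts, and 9.42, 11.1 and 12.1 CPM in Notum mutant chondroblasts. Both control chondroblast libraries lay below all E11.5 libraries and below all 3 Notum mutants, and the later epithelial library held no count.

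**Figure D2:**
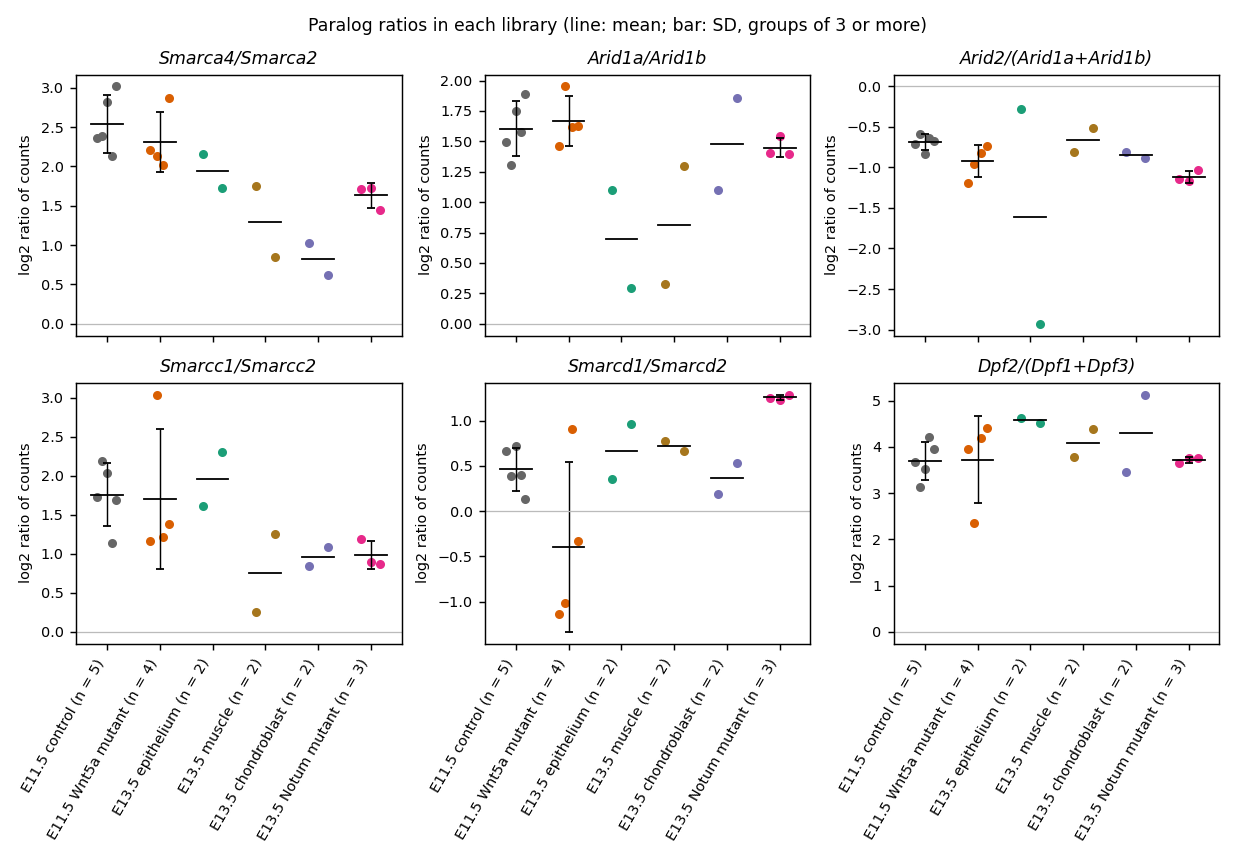
Log2 ratio of counts of paralogous subunits in each library (y axis, prior count 0.5) by group (x axis). Points are libraries, lines are group means and bars are SD for groups of 3 or more libraries. The Smarca4 to Smarca2 ratio falls from 2.13 to 3.02 in E11.5 controls to 0.62 and 1.02 in control chondroblasts, and the Notum mutants lie between, at 1.45 to 1.73.

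Differences between the sorted control populations were tested in 1 edgeR quasi-likelihood fit of 13687 genes, 2 libraries a population. Calls used the study's fold change over 1.5 and unadjusted p under 0.05, named the study's thresholds from here on. They were also made at a Benjamini-Hochberg adjusted p under 0.05. The study further asked for an FPKM over 1 in over 50% of the replicates of a condition. A filter of 1 CPM took its place here. Between chondroblasts and epithelium 1 of 29 members tested was called higher (9.09% of all genes) and 0 lower (6.66%). This was Smarca2, higher by 1.17 on the log2 scale (standard error 0.37, unadjusted p = 0.0179, adjusted p = 0.189, edgeR). Ss18 (log2 0.45, unadjusted p = 0.0405, edgeR) and Actl6a (log2 -0.57, unadjusted p = 0.0438, edgeR) stayed under the fold threshold, which Actl6a passed without the earlier epithelial library (log2 -0.72). At an adjusted p under 0.05 edgeR called 0 members, against 2.74% of all genes. At an unadjusted p under 0.05 it had 3 of 29 members and 2240 of the 13687 genes. After adjustment DESeq2's Wald test called Smarca2 (adjusted p = 0.0476, and 0.00273 to 0.588 over the alternatives) and limma voom 0. The Smarca2 call was lost without the earlier epithelial library (log2 1.13), the later one (log2 1.22) or the later chondroblast control (log2 0.96). Without the earlier epithelial library more members passed the study's thresholds, and more genes in all. Without the later one fewer members passed, and fewer genes in all. More members passed without either muscle library, where calls over all genes did not go up. Between chondroblasts and muscle the share of all genes was 5.47% at the study's thresholds and 0.132% after adjustment. In edgeR 792 genes had an unadjusted p under 0.05. Of the 29 members 0 were called by edgeR, DESeq2 or limma voom, and 0 reached an unadjusted p of 0.05 in edgeR. Without the later muscle library 1 passed the study's thresholds. Between epithelium and muscle edgeR, DESeq2 and limma voom again called 0 of 29, against 17.6% and 3.58% of all genes. At an unadjusted p under 0.05 edgeR had 0 members and 2506 of all genes. Without the earlier epithelial library more members passed the study's thresholds there, and more genes passed in all. Members also passed without the earlier or the later muscle library, where fewer genes passed in all. The spread between replicates was wide, with a biological coefficient of variation of 66.8%, and a difference such as that of Phf10 (log2 -0.76 for chondroblasts over muscle, standard error 0.38, unadjusted p = 0.0911, edgeR) could not be told from it. Actl6b, at 0 in both epithelial libraries (at most 0.146 and 0.192 CPM), is given no fold there.

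Control chondroblasts at E13.5 were set against control tracheas at E11.5, a comparison in which stage, sorting and tissue cannot be told apart. In bulk RNA, fewer cells of a type and less RNA per cell cannot be told apart either. Of 30 members tested, 2 were called higher (12.8% of all 14728 genes) and 3 lower (13.3%) at the study's thresholds. After adjustment 1 was higher and 2 lower (12.5% of all genes). With only 30 members, these counts do not set them apart from all genes. Smarca2 rose 2.88-fold (log2 1.53, standard error 0.18, adjusted p = 0.00192, edgeR), with both chondroblast libraries above all 5 tracheas. Bcl11b fell by 2.31 on the log2 scale (standard error 0.46, adjusted p = 0.0155, edgeR), and Actl6a fell by 0.62 (standard error 0.14, adjusted p = 0.0248, edgeR), again without overlap. The summed level of 6 cell cycle markers was also lower, at 2110 to 2314 CPM in the tracheas and 1315 and 1097 CPM in control chondroblasts, and that of 7 dissociation-induced genes higher, at 253 to 2581 CPM against 4371 and 2952 CPM, and their part in these differences was not tested. Actl6b (log2 2.08, unadjusted p = 0.0361, edgeR) and Bicra (log2 -1.26, unadjusted p = 0.0484) passed the study's thresholds only, and the first call was lost without either chondroblast control or control 18, the second in 6 of 7 fits that left out 1 library, all but that without the earlier chondroblast control, and lay at -0.65 without the later one. Smarca4 (log2 -0.21, standard error 0.21) did not pass either threshold. The count at the study's thresholds was 8 without E11.5 control 7, beside 1953 genes higher and 2010 lower in all. After adjustment it was 2 without E11.5 control 13, beside 627 genes higher and 404 lower. Without the earlier chondroblast control the counts of members and of all genes both went up, and without the later one both went down. The adjusted p of Smarca2 stayed between 1.23e-10 and 0.0170 over all alternatives, that of Bcl11b ran from 6.62e-06 to 0.174, and that of Actl6a from 2.39e-05 to 0.122.

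**Figure D3:**
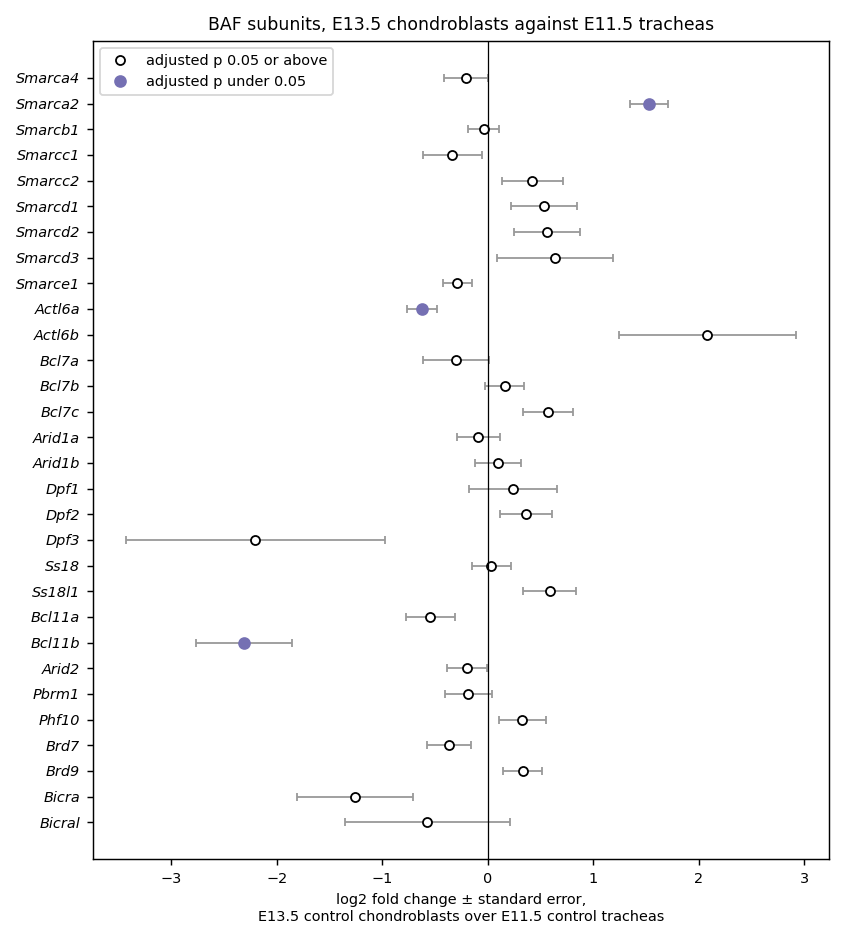
Log2 fold change of the 30 BAF subunits between E13.5 control chondroblasts and E11.5 control tracheas (x axis), with the standard error as bars, ordered by role in the complex (y axis). Filled points have an adjusted p under 0.05, which are Smarca2 at 1.53, Actl6a at -0.62 and Bcl11b at -2.31.

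No BAF subunit passed the study's thresholds between Wnt5a mutant and control tracheas at E11.5, a comparison that asks what loss of mesenchymal Wnt5a changes in the early trachea. Of 29 members tested among 14663 genes, edgeR, DESeq2 and limma voom called 0, against 3.72% of all genes at the study's thresholds and 0.0136% after adjustment. At an unadjusted p under 0.05 edgeR had 0 members and 672 of all genes. In every one of the 29 the 4 mutant and 5 control libraries overlapped. The share over all genes was not computed, so this count cannot be compared with that of other genes. The smallest p belonged to Smarcd2 (log2 0.40, standard error 0.21, unadjusted p = 0.0782, adjusted p = 1.00, edgeR), with mutants at 28.4, 26.5, 26.1 and 22.8 CPM. The median log2 fold change of the members was 0.05, with 19 higher and 10 lower, against -0.02 over all genes, and this balance was not stable over the alternatives, from 26 higher and 4 lower to 12 higher and 17 lower. Arid1a (log2 0.27, standard error 0.20) and Smarca4 (log2 0.01, standard error 0.19) did not pass the test. The study names them for the loss of Notum and not for that of Wnt5a. Without control 7, 2 members passed the study's thresholds, Smarcd2 (log2 0.59) among them, beside 214 genes higher and 721 lower in all. Without mutant 18, 1 did, beside 257 genes higher and 334 lower.

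Subunit choice was tested in the same tracheas as 11 log2 ratios of paralog counts by an exact permutation test, 2-sided, with 5 against 4 libraries. The log2 ratio of Arid2 to Arid1a and Arid1b was -0.92 in mutants and -0.69 in controls (difference -0.24, exact permutation p = 0.0476, adjusted over 11 ratios 0.349). The Bicra to Bicral ratio differed by -0.44 (exact permutation p = 0.0635, adjusted 0.349) and the Smarcd1 to Smarcd2 ratio by -0.85 (exact permutation p = 0.127, adjusted 0.4656). For Smarca4 to Smarca2 the difference was -0.23 (exact permutation p = 0.333, adjusted 0.611) and for Arid1a to Arid1b 0.06 (exact permutation p = 0.667, adjusted 1.0). None of the 11 passed the adjustment, and the smallest p that this design allows is 0.0159.

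Notum mutant chondroblasts were compared with control chondroblasts to ask what loss of Notum changes in cartilage precursors, and the BAF subunits past the study's thresholds were all higher. Of 30 members tested among 14120 genes, 7 were called higher at the study's thresholds (5.51% of all genes) and 0 lower (2.9%). These were the canonical BAF subunits Arid1a and Arid1b, the scaffolds Smarcc1 and Smarcc2, Bcl7a, Bicra and Bcl11b. After adjustment edgeR called 0 members and 0.0% of all genes. At an unadjusted p under 0.05 it had 11 of 30 members and 1762 of the 14120 genes. DESeq2's Wald test called 6 members after adjustment (Arid1a, Arid2, Smarca4, Smarcc2, Bicra and Bcl11b) with 354 genes higher and 172 lower in all, and limma voom 0 members. The count at the study's thresholds was 4 without mutant 98, beside 444 genes higher and 226 lower in all. Without the earlier control it went up, and so did calls over all genes, both at the study's thresholds and after adjustment. That fit takes the lone control to vary like the mutants. The median log2 fold change of the 30 was 0.29 with 23 higher and 7 lower, against 0.02 over all genes. Scaling by library size alone moved these medians to 0.38 and 0.11 and the share of calls that were higher from 65.5% (778 higher and 410 lower) to 77.0% (1034 and 309).

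Arid1a rose 1.76-fold (log2 0.82, standard error 0.12, unadjusted p = 0.000453, adjusted p = 0.160, edgeR), from 89.9 and 93.6 CPM in controls to 152, 174 and 152 CPM. Arid1b rose 1.75-fold (log2 0.81, standard error 0.23, unadjusted p = 0.0111, edgeR), from 41.8 and 25.8 to 57.1, 59.9 and 57.7 CPM, and was not called without the later control (log2 0.49). The 3 mutant libraries lay close together for both, and the 2 controls lay apart only for Arid1b. Smarcc2 (log2 0.60, standard error 0.16, unadjusted p = 0.00907, edgeR) and Smarcc1 (log2 0.61, standard error 0.21, unadjusted p = 0.0261) rose by similar amounts, and neither call held without the earlier control (log2 0.43 and 0.34) or without mutant 98 (log2 0.53 and 0.59), nor that of Smarcc1 without mutant 97 (log2 0.53). Smarcc2 was at log2 0.35 when only the largest table entry of each symbol was counted. Bcl7a rose 1.91-fold (log2 0.93, standard error 0.29, unadjusted p = 0.0173, edgeR) and was not called without mutant 98 (log2 0.75). Bicra rose from 3.84 and 1.12 to 10.7, 8.85 and 9.79 CPM (log2 1.99, standard error 0.61, unadjusted p = 0.0156, edgeR), a gene at which the 2 controls themselves lay apart, and was not called without mutant 97 (log2 1.93). Bcl11b rose from 1.87 and 1.34 to 9.42, 11.1 and 12.1 CPM (log2 2.77, standard error 0.44, unadjusted p = 0.000609, adjusted p = 0.190, edgeR), the largest fold of the members. The calls of Arid1a and Bcl11b held whichever library was left out, with log2 fold changes of 0.75 to 0.86 and 2.55 to 3.03. Bcl11b is a T cell gene, and 4 T cell markers summed to 55.0 CPM in mutant 98-2 against 5.42 to 10.1 CPM in the other 4 chondroblast libraries, and their part in the Bcl11b level was not tested. Of the 12 lists of markers summed, 5 separated the mutants from both controls. Single genes often did so too, with 16.6% of all genes above both controls in every mutant and 17.3% below. The 6 macrophage markers summed to 309, 263 and 387 CPM in mutants and to 196 and 124 CPM in controls, and the 8 cartilage genes to 3412, 3802 and 3037 CPM against 2636 and 2413 CPM. The 6 heart muscle markers summed to 104, 23.8 and 24.7 CPM against 10.6 and 6.05 CPM, and the 8 smooth muscle genes to 114.2, 81.5 and 114.4 CPM against 72.7 and 73.2 CPM. The 8 epithelial genes were lower in mutants, at 26.7, 17.4 and 29.7 CPM against 38.6 and 36.0 CPM. The part of these lists in the differences between mutants and controls was not tested.

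Among members under the fold threshold, Smarca4 was 1.38-fold higher in the mutants (log2 0.47, standard error 0.13, unadjusted p = 0.0107, adjusted p = 0.291, edgeR) and Arid2 1.46-fold higher (log2 0.54, standard error 0.13, unadjusted p = 0.00554, edgeR), each without overlap, and Arid2 was called without the earlier control (log2 0.64) or mutant 97 (log2 0.59). Bcl11a (log2 0.44, unadjusted p = 0.0411) and Smarce1 (log2 0.29, unadjusted p = 0.0438) also had an unadjusted p under 0.05 in edgeR. Smarca2 went the other way, with 118, 142 and 134 CPM in mutants against 149.5 and 192 CPM in controls (log2 -0.35, standard error 0.16, unadjusted p = 0.0618, edgeR), and was the only member with every mutant library below both controls. The log2 ratio of Smarca4 to Smarca2 counts was accordingly 1.72, 1.73 and 1.45 in mutants and 1.02 and 0.62 in controls. The log2 ratio of Smarcd1 to Smarcd2 was 1.26, 1.23 and 1.29 in mutants and 0.19 and 0.53 in controls. No test was made of these ratios, since 3 against 2 libraries cannot give a 2-sided exact p under 0.2. Smarcd2 was at -0.07 on the log2 scale (standard error 0.32, unadjusted p = 0.827, edgeR). The study reports higher levels of Arid1a, Smarca4 and Smarcd2 in its Notum mutants. Its test was DESeq2, on more libraries of each genotype than were at hand here. With DESeq2 on the libraries used here, Smarca4 was at log2 0.46 and Smarcd2 at -0.08, both under the fold threshold. A rise of Smarcd2 was thus not seen with either test. The part of the differing sets of libraries was not tested.

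The mutants were also set against each control library, since all 3 mutants and only 1 control are of the later date. All 3 mutants lay above the earlier control for 19 of 30 members (32.3% of all genes) and above the later control for 18 of 30 (40.4% of all genes). They lay above both for 14 of 30 (16.6% of all genes) and below both for 1 of 30 (17.3% of all genes). The 14 were the 7 called genes with Smarca4, Smarce1, Arid2, Bcl11a, Brd7, Bcl7b and Bicral. Arid1a was 1.76-fold above the earlier control and 1.69-fold above the later one on the log2(CPM + 0.5) scale, and Smarca4 was 1.34-fold and 1.37-fold above. Bcl11b was 4.78-fold and 6.15-fold above. By contrast Smarcc1 was 1.87-fold above the earlier control and 1.24-fold above the later one, and Bicra 2.36-fold and 6.34-fold. The direction depended on the control for Smarcd3, which was 1.94-fold above the earlier control and at 0.441 of the later one, and for Smarcd2, at 1.25 and 0.729 of them. It also turned for Dpf1 (0.891 and 1.76), Dpf2 (1.06 and 0.742), Dpf3 (0.818 and 2.55) and Bcl7c (1.17 and 0.773), and by less for Phf10, Ss18l1 and Actl6a. Both comparisons share the 3 mutant libraries and are not independent.

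**Figure D4:**
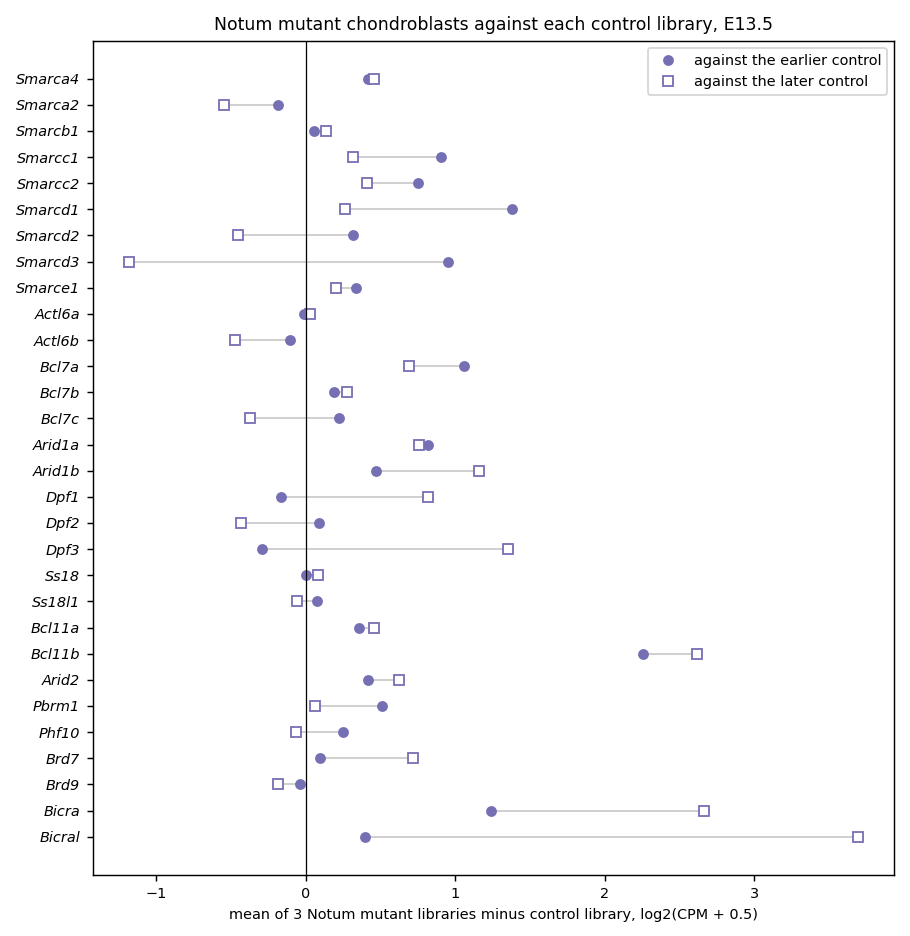
Mean of the 3 Notum mutant libraries minus each control chondroblast library for the 30 BAF subunits (x axis, difference of log2(CPM + 0.5), filled circles for the earlier and open squares for the later control), ordered by role in the complex (y axis). Arid1a and Smarca4 lie at nearly the same place against both controls, whereas Smarcd3 and Bicral differ widely between them.

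Fold changes in this comparison rose with transcript length over all genes, and 15 of the 30 subunits have a longest transcript over 4 kb. The median log2 fold change of all genes was -0.16 for transcripts under 1 kb, -0.06 for 1 to 2 kb, 0.03 for 3 to 4 kb, 0.19 for 6 to 8 kb and 0.36 over 8 kb, and the share called higher went from 1.80% to 18.1%. Of the 7 members called, 3 exceed 8 kb (Arid1a, Arid1b and Bcl11b) and 4 lie between 4 and 6 kb. Members of 3 to 4 kb had a median of 0.52, of 4 to 6 kb 0.52 and over 8 kb 0.81, each above the median of all genes of that length, and the 11 members under 3 kb had medians of 0.02 and 0.04. The trend was present against either control, with medians over 8 kb of 0.21 against the earlier and 0.44 against the later. Genes over 6 kb took 10.4 to 10.6% of counts in mutants and 8.59 and 8.65% in controls. With each library's trend on length removed, an alternative chosen after seeing the data, 3 of the 7 calls were kept, Bcl11b (log2 2.53), Bicra (1.89) and Bcl7a (0.83). Arid1a (log2 0.56, unadjusted p = 0.00339, edgeR), Smarcc2 (0.51), Smarcc1 (0.46) and Arid1b (0.45) then lay under the fold threshold, Smarca4 was at 0.29, and Smarca2 at -0.51 (unadjusted p = 0.0197, edgeR). The median of the members was 0.29 under this setting, and 54.8% of the calls over all genes were higher. In the Wnt5a comparison the medians of all genes by length ran only from -0.04 to 0.03.

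**Figure D5:**
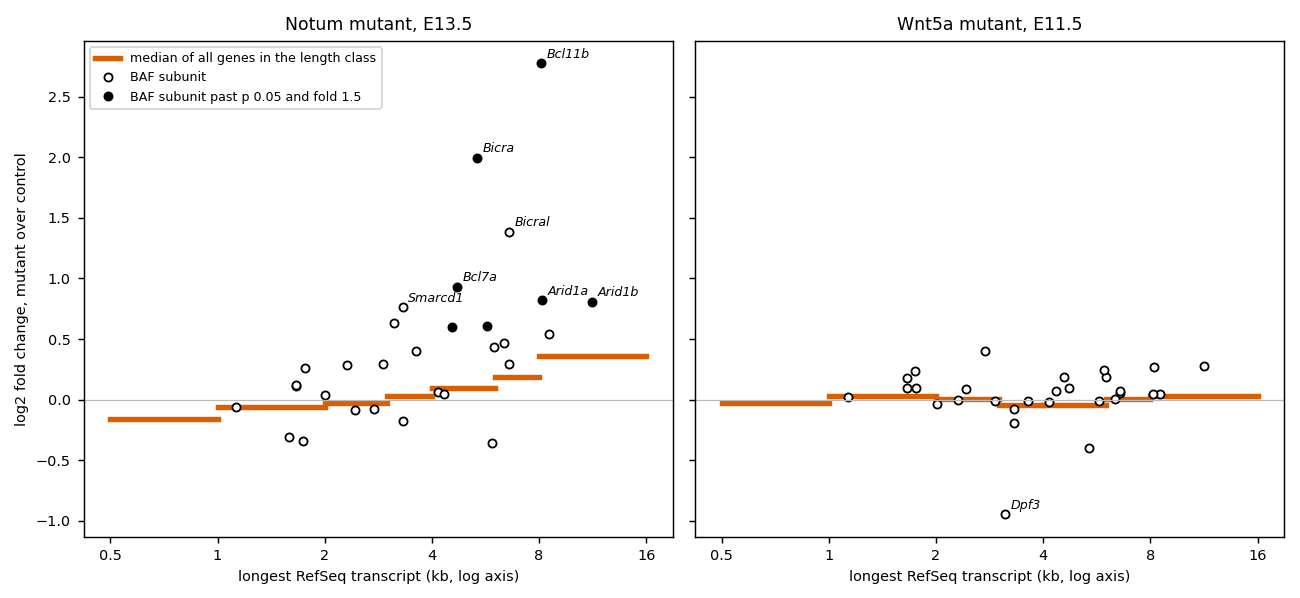
Log2 fold change of mutant over control (y axis) against the longest RefSeq transcript (x axis, kb, log scale) for the BAF subunits, with the median of all genes in each length class as orange lines, for the Notum comparison (left) and the Wnt5a comparison (right). The orange lines climb from -0.16 to 0.36 on the left and stay between -0.04 and 0.03 on the right, and the filled points are the 7 members past the study's thresholds.

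Other chromatin regulators gave a background for these counts. Of 69 genes tested from 4 other families, 11 were called higher and 0 lower in Notum mutant chondroblasts (15.9% of them higher), beside 7 of 30 (23.3%) for BAF. In the ISWI list 2 of 10 were called higher, with Baz2b (log2 0.53, unadjusted p = 0.00440, edgeR) under the fold threshold and Baz2a (log2 0.97, unadjusted p = 0.0130) past it. The NuRD and CHD list had 5 of 20 higher, led by Chd4, the ATPase of NuRD (log2 0.60, unadjusted p = 0.00217, edgeR), and Chd8 (log2 0.73, unadjusted p = 0.00679). INO80 and SRCAP had 2 of 16 higher, Srcap (log2 1.46, unadjusted p = 0.000976, edgeR) and Ep400 (log2 0.77, unadjusted p = 0.0105). Polycomb had 2 of 23 higher, with Cbx2 (log2 0.56, unadjusted p = 0.0132, edgeR) just under the fold threshold and Phc3 (log2 0.76, unadjusted p = 0.0191) past it. Without the later control Chd4 (log2 0.53) and Ep400 (log2 0.46) were not called, nor Chd4 without mutant 98 (log2 0.52), nor Phc3 without mutant 97 (log2 0.74) or 98-2 (log2 0.69), whereas Cbx2 was called without the later control, mutant 97 or mutant 98-2 (log2 0.59 to 0.63). None of the 69 passed the adjustment in edgeR. In Wnt5a mutant tracheas 0 of 68 were called in either direction by edgeR (3.72% of all genes). In each of the other comparisons 68 were tested. Between E13.5 chondroblasts and E11.5 tracheas 7 were higher (12.8% of all genes) and 6 lower (13.3%). Chondroblasts over epithelium had 3 higher (9.09%) and 5 lower (6.66%). Epithelium over muscle had 6 and 4 (17.6% of all genes in either direction), and chondroblasts over muscle 1 and 1 (5.47%).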

How the data were processed

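Tracheal RNA was converted with the SMART-Seq v4 kit from poly(A) RNA, with full-length transcripts enriched, and sequenced against mm10. The authors deposited expected counts, 47248 table entries in 22 value columns, of which 56% of values are fractional. The submitters' notes name Partek and limma without a role, the study's methods name DESeq2 and Cufflinks, and the aligner, counter and annotation are not given in the sources used here. Columns were matched to labels by name: 18 were used, and 4 that match no label were not. The 2 sorted control columns of a population could not be assigned a control genotype, and 9 of the 13 E13.5 samples in the labels have a column.

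Here, entries were summed per symbol (26202 symbols, of which 9286 have several entries, among them 17 of the 30 members) and rounded. The main test was edgeR 4.0.16 (R 4.3.3, quasi-likelihood, TMM) over genes that reached 1 CPM in over 50% of the libraries in any group, with calls at an unadjusted p under 0.05 and a fold change over 1.5, or at a Benjamini-Hochberg adjusted p under 0.05. Fits used only the libraries of a comparison, except that the 3 sorted control populations shared 1 fit. A standard error is the size of the log2 fold change over the root of its F statistic. The scripts were checked on counts drawn with 200 genes changed 4-fold. After adjustment 168 were recovered in the Wnt5a comparison, 127 in the Notum comparison and 117 between E13.5 chondroblasts and E11.5 tracheas. Only 26, 36 and 38 were recovered in chondroblasts over muscle, chondroblasts over epithelium and epithelium over muscle, so 0 members after adjustment says little there. Most members differed by far less than 4-fold, and recovery of such smaller changes was not measured in any comparison. In the Notum comparison edgeR called 0 of all genes after adjustment, so 0 members says little there too. The study's thresholds recovered 123 to 196, with 458 to 611 false calls. Paralog ratios used 0.5 added to each count and scipy 1.17.1. The alternatives included DESeq2 1.42.0, limma voom 3.58.1, other scalings and filters, and leaving out each library, and 2 were chosen after seeing the data (removing each library's trend on transcript length, and leaving out 7 erythroid genes). Full values were given for members past a threshold in any comparison, for members of paralog groups and for Arid1a, Smarca4 and Smarcd2, and for other chromatin lists the 2 smallest p-values. The members, lists and naming rule were chosen with earlier results of these data known. The main tests did not take the shared column numbers and dates to pair samples. Correlations of deviations from group means were 0.185, 0.138, 0.0891 and 0.513 for numbers 13, 17, 18 and 7. Between E11.5 controls and mutants of different numbers they ran from -0.316 to 0.210, and for shared dates from -0.0130 to 0.149. A pairing by number was thus not excluded, and the main Wnt5a fit and the permutation test ignore it.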

Additional observations from a re-analysis of the deposited data

Results flagged for a closer look

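A library stood apart from the rest of its group in 7 of 82 groups of 4 or 5 values tested by Dixon's ratio, where chance flags about 5% of groups. Of these, 4 were E11.5 control 7, with Arid2 at 105 CPM (72.0 to 76.9 in the other controls), Phf10 at 33.1 CPM (21.8 to 23.2), Bcl7a at 22.6 CPM (12.1 to 14.1) and Bcl11a at 77.0 CPM (46.1 to 48.7). In the same library 7 dissociation-induced genes summed to 2581 CPM, beside 3429 CPM in Wnt5a mutant 7 and at most 458 CPM in the other E11.5 libraries, and their part in these levels was not tested. Smarcd1 measured 49.2 CPM in Wnt5a mutant 18 against 12.9 to 18.1 CPM in the other mutants. The log2 ratio of Smarcc1 to Smarcc2 was 3.04 in Wnt5a mutant 17 against 1.16 to 1.39 in the other mutants. The log2 ratio of Bicra to Bicral was -0.97 in E11.5 control 17 against -0.46 to -0.26 in the other controls.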

How the results depend on the processing

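Counts of BAF subunits past the study's thresholds moved by over 1.5 times as follows. In the Wnt5a comparison (main 0) counting the largest entry of a symbol gave 1 and leaving out 1 library 0 to 2. In the Notum comparison (main 7) 1 fit of 18 libraries gave 4, removal of the length trend 3 and leaving out 1 library 4 to 10. After adjustment (main 0) DESeq2 gave 6 and leaving out 1 library 0 to 7. Between chondroblasts and muscle (main 0) the fit of 18 libraries gave 2 and leaving out 1 library 0 to 1. Between chondroblasts and epithelium (main 1) DESeq2, its size factors in edgeR, limma voom and the largest entry gave 3, library size only, a minimum of 10 counts and the erythroid genes left out gave 2, no filter and the length trend removed gave 4, the 18 libraries gave 6 and leaving out 1 library 0 to 6, and after adjustment (main 0) DESeq2 and no filter gave 1 and the 18 libraries 2. Between epithelium and muscle (main 0) library size only, no filter, the largest entry and the length trend removed gave 1, the 18 libraries 6 and leaving out 1 library 0 to 6, and after adjustment (main 0) 2 and 0 to 1. Between E13.5 chondroblasts and E11.5 tracheas (main 5) no filter and the 18 libraries gave 3 and leaving out 1 library 3 to 11, and after adjustment (main 3) leaving out 1 library gave 1 to 8. Calls over all genes moved under these settings as well. The cause of these differences was not tested. Of the named log2 fold changes, those of 2 uncalled members turned their sign. Smarca4 in the Wnt5a comparison (main 0.006) was at -0.0043 in limma voom, -0.066 with the column number as a block and -0.096 to 0.15 when 1 library was left out. Smarcd2 in the Notum comparison (main -0.07) was at 0.027 in limma voom, 0.075 with the largest entry and -0.42 to 0.37 when 1 library was left out. The count of paralog ratios passing the adjustment stayed at 0 under each alternative run.

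With the column number or date as a replicate block, although the numbers were not taken to pair samples, the Wnt5a comparison kept 0 and 0 while the median of its members went from 0.05 to -0.02, with 12 higher and 17 lower. Chondroblasts against muscle and epithelium against muscle kept 0 and 0. Chondroblasts against epithelium went to 2 and stayed at 0 after adjustment. The Notum comparison went from 7 to 8, and after adjustment from 0 to 8 (7 higher and 1 lower), beside 1901 genes higher and 703 lower in all. Of the 7 members called, 4 kept the call (Arid1a, Arid1b, Bicra and Bcl11b), while Smarcc1 (log2 0.33), Smarcc2 (log2 0.42) and Bcl7a (log2 0.74, unadjusted p = 0.0534, edgeR) lost it, and Arid2, Bicral, Brd7 and Dpf3 gained it. That block compares the 3 mutants with the 1 control of the later date, so that the spread comes from the mutants. With it, calls over all genes at the study's thresholds rose more steeply than those of the members. Over the 4 shared E11.5 numbers, each library correlated best with the library of its own number, except that mutant 17 correlated best with control 16 (0.210).

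Depth limits the genes near the floor of 3 counts, which are Actl6b and, in some libraries, Dpf3, Bicral and Bcl11b.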
